A study of Mus musculus with 16 samples.

Results

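The genes described here are 45 lysosome and proton pump genes, measured by RNA sequencing in mouse aortic valves. They were taken by name from a table of 20992 genes. They comprise 13 cathepsins and related peptidases, 6 glycosidases, 8 lipid enzymes and lipid carriers, 6 membrane proteins, channels and regulators, 5 genes of the V0 sector of the proton pump (with the accessory subunit Atp6ap1) and 7 genes of its V1 sector. All mice were on the C57BL/6J background. HC/HT mice lacked ApoE and carried human renin and human angiotensinogen transgenes, and 3 libraries of this group were used. HC mice lacked ApoE, the hypercholesterolaemia model (4 libraries), and HT mice carried both human transgenes with ApoE intact, the hypertension model (4 libraries). CON mice were the controls (4 libraries). No Cre or cell type restricts the ApoE knockout as described, and the promoters that drive the transgenes, the ages and the diets are not stated in the labels. The design planned 4 mice per group, and the p-values below measure the spread between the libraries deposited for each group.

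Lysosomes are acidic organelles that break down protein, glycan and lipid brought in by endocytosis, phagocytosis and autophagy. The vacuolar proton pump acidifies them: its V1 sector, in the cytosol, splits ATP, and its V0 sector carries protons through the membrane. Acid hydrolases such as the cathepsins work at that low pH. Lysosomal acid lipase frees cholesterol from the esters of lipoproteins, and NPC2 and NPC1 pass the cholesterol out of the lysosome. The transcription factor TFEB raises many lysosomal genes together through a short DNA element with the core CACGTG. In the aortic valve, interstitial cells, endothelial cells and macrophages all hold lysosomes.

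The values are the deposited normalised read counts, multiplied by 1 factor so that the median library total is 1000000, and are called units below. The 15 deposited totals lie between 10207928 and 10210305, so the depth of each library is unknown. All 45 members reached 1 unit in at least 4 libraries and were tested with 15004 genes in all. Differences are log2 values fitted with limma on log2(value + 1) with group and sex as terms, and a gene passed at an adjusted p (Benjamini-Hochberg over those genes, two-sided) under 0.05. Apoe lay between 2.15 and 12.3 units in the 7 knockout libraries (HC/HT and HC) and between 56.6 and 1014 units in the 8 ApoE-intact libraries (HT and CON), which separates the labels. The labels number the knockout libraries before the intact ones and name no batch, so a batch that followed this numbering cannot be told apart from genotype. The table's 4 most abundant rows held 50.9 ± 4.87% of the total in HC/HT, 41.4 ± 8.86% in HC, 54.4 ± 9.63% in HT and 41.6 ± 11.2% in CON (SD). That share moves every other gene the opposite way, so values rescaled by the median of gene ratios (median-of-ratios scaling) are given beside the counts.

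Knockout valves were compared with ApoE-intact valves as the mean of HC minus CON and HC/HT minus HT. Of the 45 members, 8 rose and 0 fell: Ctsl, Psap, Ctsd, Lipa, Ctsb, Man2b1, Gusb and Ctss. The share that rose was 17.8% of the members, against 1.28% of all genes by the same rule. The difference was above 0 for 44 of the 45 members, against 61.8% of all genes, with a median of 0.59 against 0.09 over all genes. At an unadjusted p under 0.05 there were 23 members (51.1%), against 9.84% of all genes. Under median-of-ratios scaling 12 members rose, the same 8 with Ctsa, Grn, Atp6v0c and Atp6v1a, where 1.45% of all genes passed in either direction. The median was then 0.47 against -0.01 over all genes. In bulk tissue, more cells of a type and more RNA per cell cannot be told apart.

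**Figure D1:**
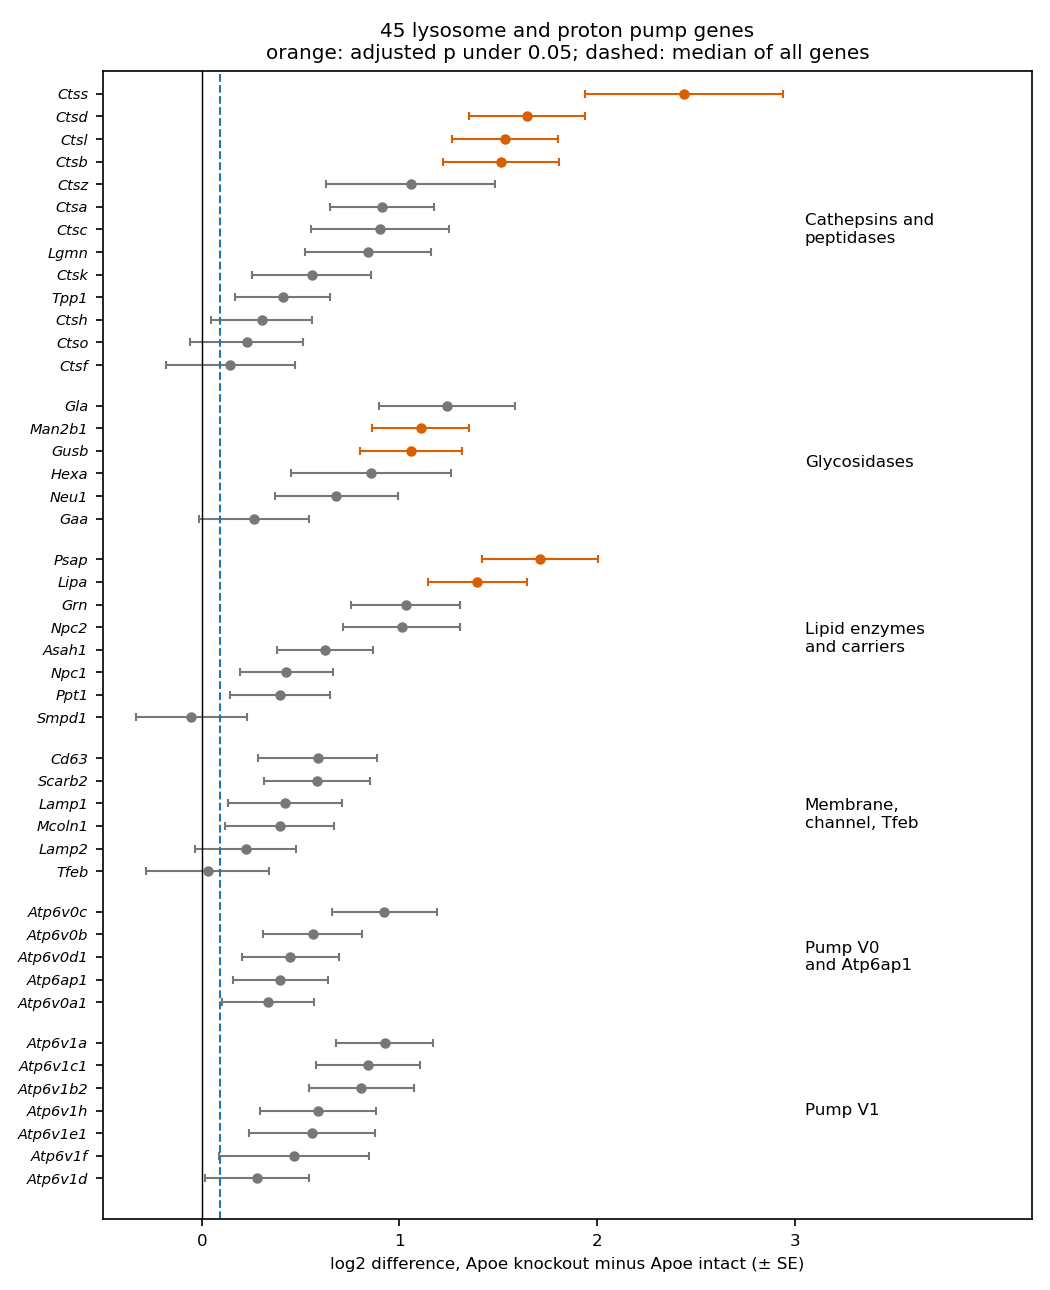
Fitted log2 difference (horizontal axis, bars ± SE) of each of the 45 members in knockout (HC/HT and HC) minus ApoE-intact (HT and CON) valves, grouped by role, with the median of all genes as a dashed line. The 8 members that passed are orange and belong to the cathepsins, glycosidases and lipid enzymes; Smpd1 is the member below 0.

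The cathepsins held 4 of the 8 members that rose, out of 13 tested, with a median difference of 0.90. Cathepsin L (Ctsl, chr13:64359337-64370890, mm10), a cysteine protease of broad specificity, read 144, 101 and 124 units in HC/HT and 139, 257, 262 and 213 units in HC, against 69.2, 42.1, 19.2 and 54.3 units in HT and 71.7, 87.4, 70.0 and 41.4 units in CON. Every knockout library was above every intact one, and the HC libraries reached higher than the HC/HT ones. Its difference was 1.53 (SE 0.267, adjusted p = 0.00149). Cathepsin D (Ctsd, chr7:142375911-142388038), the main aspartic protease of lysosomes, read 887, 1025 and 543 units in HC/HT and 744, 1124, 1220 and 816 units in HC, against 509, 210, 157 and 148 units in HT and 433, 381, 298 and 151 units in CON. The gap between the lowest knockout library (543 units, HC/HT) and the highest intact library (509 units, HT) was narrow, and the difference was 1.65 (SE 0.294, adjusted p = 0.00198).

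Cathepsin B (Ctsb, chr14:63122462-63145923), a cysteine protease that also trims peptides from their ends, ranged from 615 to 1485 units with a median of 946 in knockout libraries, against 109 to 585 units with a median of 330 in intact libraries. The groups did not overlap, and the difference was 1.52 (SE 0.293, adjusted p = 0.00467). Cathepsin S (Ctss, chr3:95526786-95556403), which matures the invariant chain in antigen-presenting cells, read 167, 293 and 226 units in HC/HT and 188, 376, 591 and 340 units in HC, against 141, 23.4, 8.23 and 50.5 units in HT and 61.8, 49.9, 77.1 and 48.1 units in CON. It had the largest difference of the 45 members, 2.44, and also the largest SE, 0.501 (adjusted p = 0.034). HT held both the lowest library and the highest intact one.

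The other 9 cathepsins and peptidases did not pass. Cathepsin A (Ctsa, the protective protein of neuraminidase and beta-galactosidase) came nearest, at 0.91 (SE 0.263, adjusted p = 0.0848). Cathepsin K (Ctsk), the collagenase of osteoclasts, averaged 13.3 ± 6.68 units in HC/HT and 25.7 ± 9.52 units in HC, against 8.52 ± 5.98 units in HT and 14.0 ± 4.35 units in CON (SD). The SDs are wide against the gaps between these means, and the difference was 0.56 (SE 0.301, adjusted p = 0.598). Ctsf and Ctso, at 0.14 and 0.23, lay lowest among the cathepsins.

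**Figure D2:**
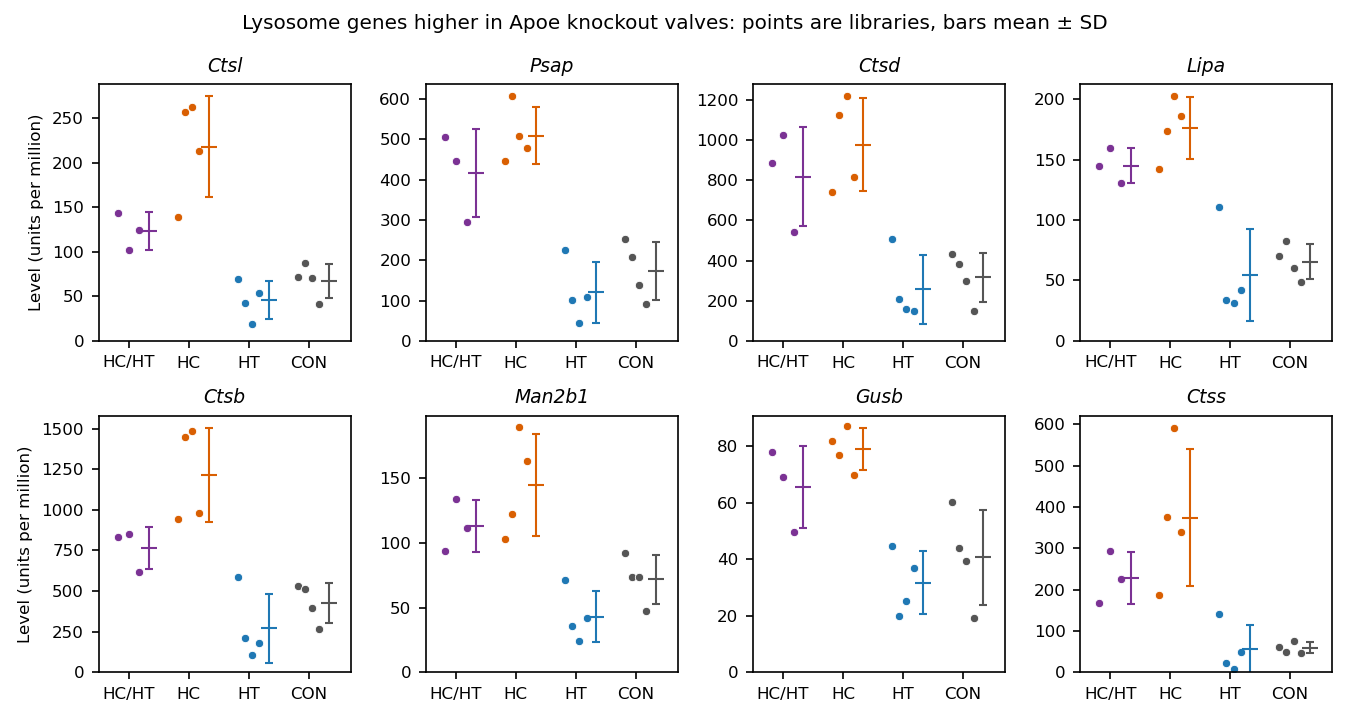
Level in units (vertical axes, linear from 0) of the 8 members that passed in the knockout comparison, by group: HC/HT, HC, HT and CON. Points are libraries and bars the mean ± SD, ending at 0 where the SD is larger than the mean (Ctss in HT). Knockout and intact libraries are apart for 7 of the 8 genes and overlap for Gusb.

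Of 6 glycosidases, 2 rose. Man2b1, the lysosomal alpha-mannosidase (chr8:85083270-85098282), ranged from 94.1 to 190 units with a median of 122 in knockout libraries, against 23.9 to 92.6 units with a median of 59.1 in intact libraries. The groups did not overlap, but the lowest knockout library (HC/HT) lay just above the highest intact one (CON), and the difference was 1.11 (SE 0.244, adjusted p = 0.0137). Gusb, beta-glucuronidase (chr5:129989011-130003049), ranged from 49.6 to 87.2 units in knockout libraries, against 19.3 to 60.2 units in intact libraries. It was the called member whose groups overlapped, through HC/HT replicate 3 and CON replicate 1, and its difference was 1.06 (SE 0.257, adjusted p = 0.0302). Gla, alpha-galactosidase A, had a larger fitted difference, 1.24, with a wider SE of 0.345 and did not pass (adjusted p = 0.0694). It read 16.2, 6.27 and 12.0 units in HC/HT and 5.98, 21.3, 28.7 and 20.4 units in HC, against 10.9, 3.43, 2.84 and 5.19 units in HT and 5.29, 6.86, 4.90 and 4.21 units in CON. The lowest library of HC and that of HC/HT fell within the intact range.

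Of 8 lipid enzymes and carriers, 2 rose. Psap (chr10:60277627-60302597), the precursor of the saposins that present sphingolipids to their hydrolases, read 506, 447 and 296 units in HC/HT and 445, 608, 507 and 477 units in HC, against 226, 102, 45.6 and 110 units in HT and 253, 209, 138 and 91.0 units in CON. All knockout libraries were above all intact ones, and the difference was 1.71 (SE 0.296, adjusted p = 0.00168). Lipa (chr19:34492318-34527474), lysosomal acid lipase, read 144, 160 and 131 units in HC/HT and 142, 174, 203 and 186 units in HC, against 111, 33.9, 31.3 and 41.7 units in HT and 70.1, 83.0, 60.2 and 48.5 units in CON. HT replicate 1 lay near the knockout libraries and the other HT libraries below all of CON. The difference was 1.39 (SE 0.25, adjusted p = 0.00198).

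The cholesterol carriers after Lipa did not pass. Npc2, the soluble carrier, differed by 1.01 (SE 0.295, adjusted p = 0.0981). Npc1, the membrane carrier, averaged 68.6 ± 12.0 units in HC/HT and 75.4 ± 10.6 units in HC, against 51.5 ± 15.1 units in HT and 59.9 ± 17.0 units in CON, a difference of 0.43 (SE 0.235, adjusted p = 0.606). Grn, progranulin, differed by 1.03 (SE 0.276, adjusted p = 0.0528). Smpd1, acid sphingomyelinase, was the member with a negative value, -0.05 (SE 0.280), and its means were 17.7 ± 1.62 units in HC/HT, 30.2 ± 8.26 units in HC, 20.1 ± 13.2 units in HT and 26.3 ± 11.8 units in CON.

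None of the 6 membrane proteins, channels and regulators passed, and their median difference was 0.41. Lamp1, a glycoprotein that coats the lysosomal membrane, averaged 312 ± 67.8 units in HC/HT and 421 ± 112 units in HC, against 225 ± 147 units in HT and 323 ± 128 units in CON (difference 0.42, SE 0.288, adjusted p = 0.741). Its partner Lamp2 differed by 0.22 (SE 0.257, adjusted p = 0.889). The SDs of both genes' groups spanned the gaps between knockout and intact means. Tfeb read 3.53, 5.88 and 4.21 units in HC/HT and 8.33, 7.35, 3.62 and 2.15 units in HC, against 4.90, 2.35, 3.72 and 5.00 units in HT and 5.98, 5.88, 5.58 and 5.39 units in CON. The HC libraries spread on both sides of CON, and the difference was 0.03 (SE 0.312, adjusted p = 0.995), which became -0.07 under median-of-ratios scaling. Tfeb had the lowest level of the members in CON per length, at 1.01 units per kb of exon, against 134 for Ctsd and 121 for Lamp1 (GENCODE M21 exons, since the labels do not state the authors' gene models).

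None of the 12 proton pump members passed at the deposited scaling, while all 12 differences were above 0, against 61.8% of all genes. The V0 genes had a median difference of 0.45 and the V1 genes 0.59. Atp6v0c, the proteolipid of the V0 ring, read 88.1, 100.2 and 76.7 units in HC/HT and 95.5, 105, 130 and 65.2 units in HC, against 83.7, 34.7, 26.1 and 24.0 units in HT and 72.6, 70.0, 41.0 and 31.4 units in CON. HT replicate 1 and the upper CON libraries lay among the knockout values. Its difference was 0.92 (SE 0.267, adjusted p = 0.0848) at the deposited scaling and 0.80 (adjusted p = 0.0469) under median-of-ratios scaling. Atp6v1a, the catalytic A subunit of V1, differed by 0.93 (SE 0.246, adjusted p = 0.051), and by 0.80 (adjusted p = 0.0398) under median-of-ratios scaling.

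The stalk subunit Atp6v0d1 averaged 37.2 ± 8.40 units in HC/HT and 40.2 ± 2.15 units in HC, against 21.6 ± 11.5 units in HT and 34.9 ± 6.98 units in CON. The knockout means differed little from that of CON, and the pooled difference was 0.45 (SE 0.245, adjusted p = 0.606). Its isoform Atp6v0d2, a gene outside the 45 that is known from osteoclasts and macrophages, read 52.5, 28.9 and 63.2 units in HC/HT and 44.2, 103, 81.3 and 132 units in HC, against 13.8, 4.51, 0.392 and 3.13 units in HT and 1.96, 4.31, 5.98 and 1.86 units in CON. Every knockout library exceeded every intact one, with a difference of 3.64 (SE 0.417, adjusted p = 7.76e-05). The Atp6v0d2 value per Atp6v0d1 value was 1.41 ± 0.739 in HC/HT and 2.23 ± 0.890 in HC, against 0.216 ± 0.155 in HT and 0.0981 ± 0.0475 in CON.

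Tcirg1, the a3 isoform and also outside the 45, ranged from 40.3 to 122 units in knockout libraries, against 8.72 to 57.1 units in intact libraries, with a difference of 1.40 (SE 0.301, adjusted p = 0.0132). Its range overlapped between the groups. The member Atp6v0a1, the a1 isoform, differed by 0.34 (SE 0.233). The Tcirg1 value per Atp6v0a1 value was 1.42 ± 0.860 in HC/HT and 1.08 ± 0.117 in HC, against 0.519 ± 0.190 in HT and 0.714 ± 0.263 in CON, and the HC/HT values spread widely.

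**Figure D3:**
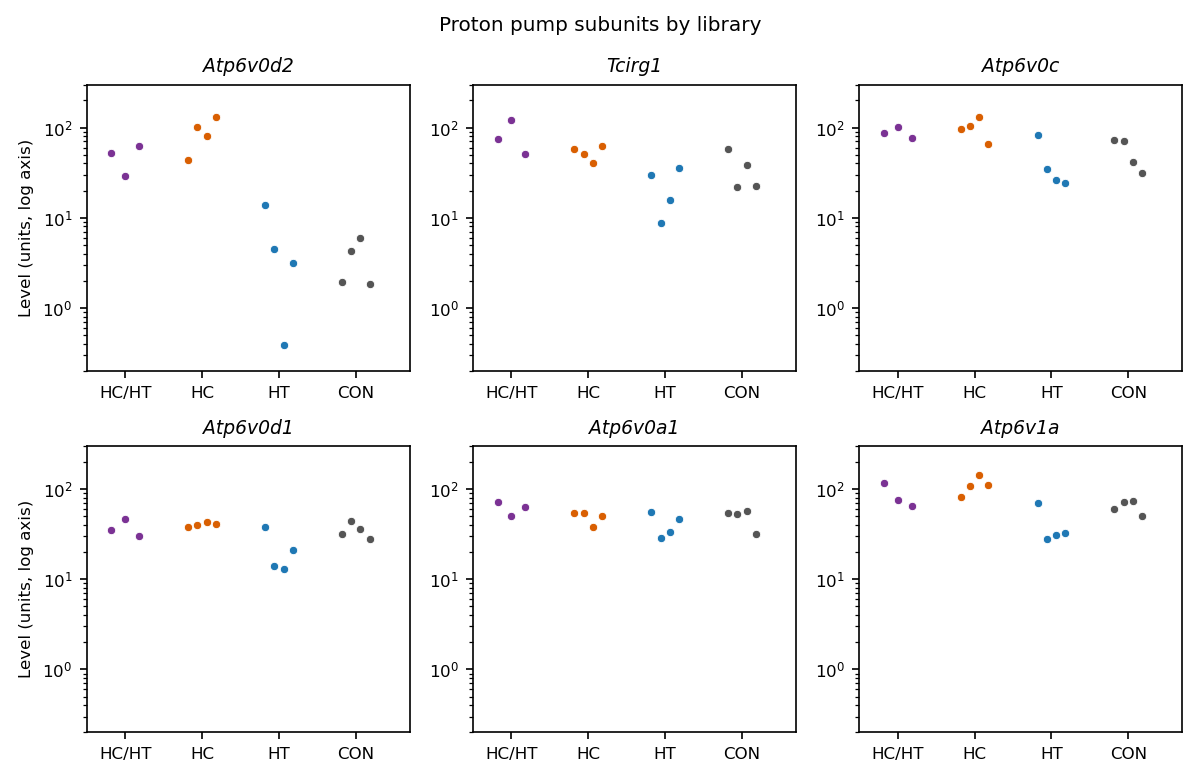
Level in units (vertical axes, logarithmic) of 6 proton pump subunits in each library of HC/HT, HC, HT and CON. Atp6v0d2 lies at 28.9 units or more in knockout libraries and at 13.8 units or less in intact ones, while Atp6v0d1, Atp6v0a1, Atp6v0c, Atp6v1a and Tcirg1 overlap between them.

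The knockout and intact libraries did not overlap for 7 members, 15.6% of the 45, against 0.673% of all genes: the called members without Gusb. Sex was unevenly spread (5 females and 2 males among knockout libraries, 3 females and 5 males among intact ones), so the differences were also taken within each sex, without a test. In females 42 of 45 members were higher in knockout libraries, with a median difference of 0.50. In males all 45 were higher, with a median of 1.07. These values are at the deposited scaling, and the share over all genes was not taken within each sex. The counts therefore do not show a shift particular to the members. Ctss differed by 2.43 in females and 2.62 in males, and Ctsl by 1.30 in females and 2.02 in males. Lamp1 differed by 0.00 in females and 1.10 in males. At this scaling HT replicate 1, the highest HT library for most members, is among the intact females. HT replicate 3 and CON replicate 4, the lowest of their groups for most members, are among the intact males. Whether the knockout difference varied with sex was not tested.

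Across 26 other settings of the knockout comparison, Ctsl and Psap passed in all 26, and Ctsd and Lipa in 25. Ctsb passed in 24, Man2b1 in 21, Gusb in 18 and Ctss in 16. Their adjusted p reached at most 0.0303 for Ctsl, 0.0438 for Psap, 0.115 for Ctsd, 0.0717 for Lipa, 0.131 for Ctsb, 0.271 for Man2b1, 0.446 for Gusb and 0.163 for Ctss. Of single libraries, Ctsb was lost without HC/HT replicate 1, and Man2b1 without that library, HC replicate 2, HT replicate 2 or CON replicate 2. Gusb was lost without any of these 4, HC replicate 3 or HC/HT replicate 2, and Ctss without any HC/HT library, HC replicate 2, 3 or 4, HT replicate 2, or CON replicate 2 or 4. The number of members that passed was 4 without HC/HT replicate 1, where 0.636% of all genes passed in either direction, against 1.47% with every library. It was 5 without HC replicate 2, HT replicate 2 or CON replicate 2, with 0.779%, 0.475% and 0.63% of all genes, and 18 without HT replicate 1, with 2.81% of all genes. Without the 3 libraries that correlated least with the others (HT replicates 2 and 3 and HC/HT replicate 2) it was 3 (Ctsl, Ctss and Psap), with 0.303% of all genes.

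The comparison was also made within each background. HC against CON is the knockout without the hypertension transgenes, and 0 members passed there by limma, where 0.107% of all genes rose. Unadjusted p was under 0.05 for 15 members (33.3%), against 4.01% of all genes. All 4 HC libraries lay above all 4 CON libraries for 14 members, 31.1% of the 45, against 2.81% of all genes. The leading members were Ctsl at 1.58 (SE 0.367, adjusted p = 0.0845), Ctsd at 1.53 (SE 0.405, adjusted p = 0.217), Psap at 1.51 (SE 0.407, adjusted p = 0.259), Lipa at 1.25 (SE 0.344, adjusted p = 0.261) and Ctsb at 1.33 (SE 0.403, adjusted p = 0.398). Under median-of-ratios scaling Ctsl, Lipa and Psap passed, where 0.206% of all genes passed in either direction. The member median was 0.48, against -0.02 over all genes.

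HC/HT against HT is the knockout with the transgenes in both groups. By limma 3 members (6.67%) rose there, against 0.32% of all genes. They were Psap at 1.91 (SE 0.411, adjusted p = 0.0343), Lipa at 1.53 (SE 0.348, adjusted p = 0.0467) and Ctsd at 1.76 (SE 0.409, adjusted p = 0.0491). At an unadjusted p under 0.05 there were 21 members (46.7%), against 8.71% of all genes. For 9 members (20%) all HC/HT libraries lay above all HT libraries, against 4.99% of all genes. These were the 7 of the pooled comparison with Gusb and Neu1, a sialidase. Of 45 members 44 were above 0, against 69.5% of all genes, with a median of 0.85 against 0.21 over all genes. Under median-of-ratios scaling Psap and Lipa passed, where 0.239% of all genes passed in either direction, and the medians were 0.59 and -0.01. Of single libraries, 0 members passed without HT replicate 2, 3 or 4, HC replicate 1 or 3, or HC/HT replicate 1 or 2. Of all genes 0.0468% to 0.242% passed in those fits, in either direction, against 0.373% with every library. Without HT replicate 1, 14 members passed, with 1.74% of all genes.

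These comparisons share no library, although 1 fit gave both their sex term and their spread. The difference was above 0 in both for 41 of the 45 members, 91.1%, against 38.7% of all genes. It was above 1 in both for 7 members, 15.6%, against 1.57% of all genes. The interaction of knockout and transgenes, which tests whether the knockout difference changed with the transgenes, passed for 0 members by limma, against 0% of all genes, and 0 members had an unadjusted p under 0.05, against 1.38% of all genes. The highest interaction among the members was 1.09, for Atp6v1f, and the member median of 0.26 became -0.01 under median-of-ratios scaling.

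**Figure D4:**
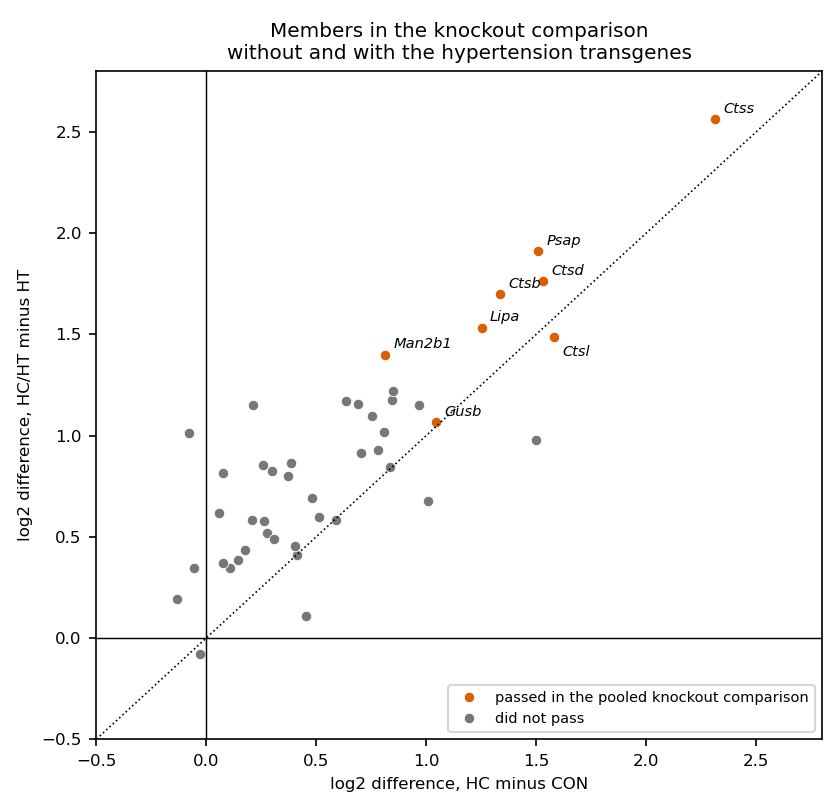
Fitted log2 difference of the 45 members with the transgenes (HC/HT minus HT, vertical axis) against that without them (HC minus CON, horizontal axis), with equality as a dotted line. The 8 members that passed in the pooled comparison are orange and named; they lie above 0.8 on both axes, with Ctss farthest out at 2.31 and 2.56.

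HC/HT against CON compares the double model with controls. By limma 0 members passed, where 0.147% of all genes rose, and 6 members (13.3%) had an unadjusted p under 0.05, against 11.4% of all genes. All HC/HT libraries lay above all CON libraries for 8 members, 17.8%, against 2.89% of all genes: Ctsb, Ctsd, Ctsl, Ctss, Man2b1, Lipa, Psap and Atp6v0c. The smallest p-values belonged to Ctsd at 1.28 (SE 0.425, adjusted p = 0.207), Psap at 1.22 (SE 0.427, adjusted p = 0.246) and Lipa at 1.01 (SE 0.362, adjusted p = 0.254). These 3 passed under median-of-ratios scaling, where 0.725% of all genes passed in either direction. The member median was 0.27, against -0.20 over all genes, with 28 of the 45 members above 0, against 33.2% of all genes. Under median-of-ratios scaling it was 0.47 against -0.02, with 35 above 0 and 10 below 0, where 51.5% of all genes were below 0. At the deposited scaling, leaving out 1 library took the member median as low as 0.061.

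The transgenes were compared with and without the knockout, and 0 members passed in any of these comparisons by limma. In HT against CON all 45 members were below 0, with a median of -0.65, but so were 86.7% of all genes, whose median was -0.42. Over all genes 0% passed, and an unadjusted p under 0.05 was found for 12 members (26.7%), against 12.8% of all genes. Scarb2, the receptor that delivers glucocerebrosidase to lysosomes, had the smallest p at -1.04 (SE 0.348, adjusted p = 0.351), followed by Man2b1 at -0.88 (SE 0.318, adjusted p = 0.351) and Ctsf at -1.13 (SE 0.424, adjusted p = 0.359). All HT libraries lay below all CON libraries for 1 member (2.22%), Tfeb, against 4.15% of all genes. Under median-of-ratios scaling the member median was -0.19 against -0.01. Of the 45 differences 10 were above 0 and 35 below 0, where 51.1% of all genes were below 0.

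In HC/HT against HC, where both groups lack ApoE, 42 members were below 0, against 69.4% of all genes. The member median was -0.37, against -0.18 over all genes. Under median-of-ratios scaling 34 members were below 0, against 51.9% of all genes, with a median of -0.17 against -0.02. By limma 0% of all genes passed. An unadjusted p under 0.05 was found for 2 members (4.44%), against 4.41% of all genes: Ctsk at -0.88 (SE 0.416, adjusted p = 0.984) and Ctsl at -0.77 (SE 0.369, adjusted p = 0.984). All HC/HT libraries lay below all HC libraries for 6 members, 13.3%, against 4.53% of all genes: Ctsb, Gaa, Smpd1, Scarb2, Atp6v1b2 and Atp6v1d. Pooled over both backgrounds, hypertensive valves (HC/HT and HT) were compared with normotensive valves (HC and CON). There 43 members were below 0, against 84% of all genes, with a median of -0.51 against -0.30 over all genes. By limma, 19 members (42.2%) had an unadjusted p under 0.05, against 16.7% of all genes. By adjusted p 0.0133% of all genes passed there. Under median-of-ratios scaling that median was -0.18 against -0.01. There 10 members were above 0 and 35 below 0, where 51.7% of all genes were below 0.

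**Figure D5:**
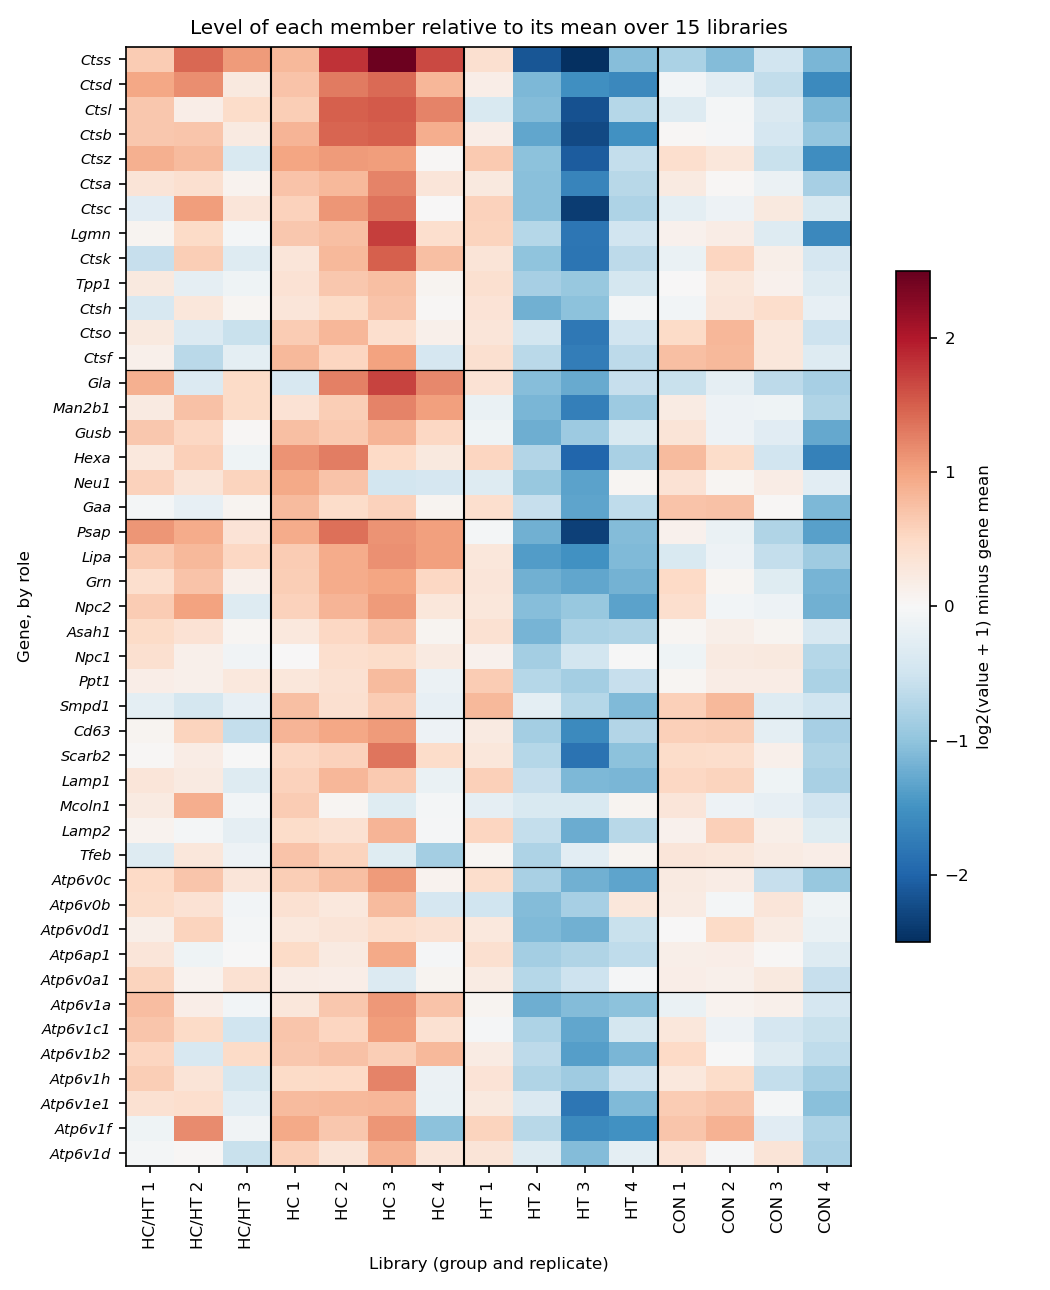
Level of each of the 45 members (rows, by role) in each of the 15 libraries (columns: HC/HT, HC, HT, CON), as log2(value + 1), at the deposited scaling, minus the gene's mean over the libraries. Values for most members lie together within a library: HT replicate 3 is blue for nearly all rows and HC replicate 3 red for most.

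Within groups, the order of the libraries depended on the scaling. HC replicate 3 was the highest HC library for 33 of the 45 members at the deposited scaling and for 23 of the 45 under median-of-ratios scaling, against 30.8% and 25.7% of all genes. HT replicate 1 was the highest HT library for 41 of the 45 members and for 36 of the 45 under median-of-ratios scaling, against 48.4% and 23.7% of all genes. HT replicate 3 was the lowest HT library for 31 of the 45 members and for 22 of the 45 under median-of-ratios scaling, against 40.2% and 28.0% of all genes. CON replicate 4 was the lowest CON library for all 45 members, but also for 67.3% of all genes, and for 19 members under median-of-ratios scaling, against 29.4% of all genes. At the deposited scaling the mean log2 level over the members was 6.10, 6.14 and 5.78 in HC/HT and 6.34, 6.50, 6.67 and 6.02 in HC, against 6.02, 4.86, 4.38 and 5.05 in HT and 5.96, 5.96, 5.64 and 5.00 in CON. Under median-of-ratios scaling it was 5.95, 6.25 and 5.90 in HC/HT and 5.97, 6.30, 6.40 and 6.22 in HC, against 5.92, 5.51, 4.94 and 5.10 in HT and 5.599, 5.57, 5.41 and 5.34 in CON. HT replicate 1 lay level with the lowest knockout libraries under both scalings, and HT replicate 3 lay below every CON library under both.

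A list of 97 other lysosome genes was set beside the members, of which 91 were tested. In the knockout comparison 9 (9.89%) rose and 0 fell, against 1.28% of all genes that rose, with a median of 0.38 against 0.09 over all genes. Of these, 3 are hydrolases or activators: Acp5, tartrate-resistant acid phosphatase, at 2.77 (SE 0.349, adjusted p = 1.89e-05), Pld3, an exonuclease, at 1.74 (SE 0.280, adjusted p = 0.000721), and Ifi30, a thiol reductase, at 1.78 (SE 0.387, adjusted p = 0.0242). Membrane proteins and transporters gave 4 of 19: Gpnmb, a glycoprotein of melanosomes and macrophage lysosomes, at 3.30 (SE 0.337, adjusted p = 1.02e-05), Cd68 at 2.04 (SE 0.302, adjusted p = 0.000371), Laptm5 at 1.62 (SE 0.309, adjusted p = 0.00582) and the peptide transporter Slc15a3 at 1.57 (SE 0.310, adjusted p = 0.00561). Pump subunits outside the members gave Atp6v0d2 and Tcirg1. Acp5, Pld3, Gpnmb, Cd68 and Atp6v0d2 passed in all 26 other settings. Ifi30 passed in 17 (adjusted p up to 0.204) and was lost with the replicate block, with no filter and without HC/HT replicate 1 or 2, HC replicate 2, HT replicate 2, or CON replicate 2 or 4. Tcirg1 passed in 22 (adjusted p up to 0.347) and was lost with no filter and without HT replicate 2 or CON replicate 2. Slc15a3 passed in 24 (adjusted p up to 0.0624) and was lost without HC/HT replicate 1. Laptm5 passed in 23 (adjusted p up to 0.112) and was lost under median-of-ratios scaling and quantile normalisation. All 4 were also lost without the 3 libraries that correlated least.

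Gpnmb read 437, 237 and 413 units in HC/HT and 244, 472, 322 and 716 units in HC, against 53.0, 27.0, 12.9 and 47.9 units in HT and 82.8, 42.0, 43.9 and 28.2 units in CON. The knockout and intact libraries did not overlap. Of the 11 sorting receptors and delivery genes 0 passed, with a median of 0.26, and of the 16 regulators and nutrient-sensing genes 0 passed, with a median of 0.36. Mitf, a relative of TFEB, differed by 0.19 (SE 0.270, adjusted p = 0.909).

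Markers of some cell types, macrophages among them, were higher in knockout libraries as the members were. Those of smooth muscle and cardiomyocytes had fitted differences below 0. The summed level of 20 macrophage markers ranged from 2395 to 5294 units in knockout libraries, against 245 to 2023 units in intact libraries, and none of the 20 was at 0 in every library. In the knockout comparison 7 of the 20 rose (35%), among them Trem2, Lyz2, Mpeg1 and C1qb, against 1.28% of all genes. The list median was 1.27, against 0.09 over all genes. Of the 20, 19 were above 0, and the lowest was at -0.75. Cd68 is on this list as well as on the list of lysosome genes. All 7 tested markers of T and NK cells were above 0, with a median of 1.00 and 1 that rose, and their sum was 27.3 to 107 units in knockout libraries, against 2.15 to 61.1 units in intact libraries. The 4 tested neutrophil markers and the 5 melanocyte markers were all above 0, with medians of 1.33 and 0.71 and 0 that rose. In HC/HT against HT 2 of the 5 melanocyte markers rose, against 0.32% of all genes. Of 6 tested osteoclast markers 2 rose, Acp5 and Atp6v0d2, with a list median of 0.40, and Calcr was at -0.59. The 8 osteoclast markers, which include the member Ctsk, summed to 159 to 273 units in knockout libraries, against 61.5 to 137 units in intact libraries. Without Atp6v0d2 the sums overlapped, at 107 to 156 units in knockout libraries, against 57.0 to 133 units in intact libraries. The 6 smooth muscle markers summed to 57.6 to 594 units in knockout libraries, against 111 to 2669 units in intact libraries. All 6 were below 0 in the knockout comparison, with a median of -2.19 and 1 that fell. The 9 cardiomyocyte markers summed to 164 to 1295 units in knockout libraries, against 370 to 11708 units in intact libraries. All 9 were below 0, with a median of -1.75, and 0 passed. Of all genes 38.2% were below 0. The 10 fibroblast and valve interstitial cell markers, at 5833 to 17104 units against 5022 to 18055 units, did not separate the groups. Nor did the 8 endothelial markers, at 706 to 1144 units against 547 to 1204 units, with a list median of 0.07. The part of cell makeup in the members' differences was not tested.

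Promoter sequence was compared because many members are known targets of TFEB. A window from 250 bases before to 50 after the start site was found for 38 of the 45 members in RefSeq (GRCm38.p6, the assembly of mm10); Asah1, Ctsb, Npc1, Atp6v1c1, Atp6v1h, Ctsh and Atp6v1b2 were not matched. The palindrome TCACGTGA, the same on both strands, was in 6 of the 38 (15.8%), against 1.12% of the 27025 genes with a window. The shorter core CACGTG, which every copy of TCACGTGA contains, was in 12 (31.6%), against 8.09%. Of the 8 members that rose, Ctsd held TCACGTGA and Ctsl held CACGTG without the flanking bases. The stretches around the element are shown for the 5 holders with the smallest p in the knockout comparison, 5′ to 3′ on the gene's strand, with TCACGTGA in capitals. They lie at chr7:142387895-142387952 (Ctsd, minus strand), chr16:44139360-44139417 (Atp6v1a, minus), chrX:134601202-134601255 (Gla, minus), chr2:164833734-164833791 (Ctsa, plus) and chr8:105566037-105566094 (Atp6v0d1, minus).
Ctsd: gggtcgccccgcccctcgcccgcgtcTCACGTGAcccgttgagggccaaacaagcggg
Atp6v1a: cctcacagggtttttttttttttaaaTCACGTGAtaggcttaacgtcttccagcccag
Gla: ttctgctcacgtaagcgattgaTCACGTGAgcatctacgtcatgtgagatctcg
Ctsa: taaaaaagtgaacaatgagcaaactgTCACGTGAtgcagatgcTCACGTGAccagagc
Atp6v0d1: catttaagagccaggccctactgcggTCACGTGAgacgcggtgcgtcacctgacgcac
The first base of the element lay at position -99 from the start site in Ctsd, -132 in Atp6v1a, -228 in Gla, -13 in Ctsa and -4 in Atp6v0d1, and the Gla and Ctsa windows hold 2 copies each. Of these 5 genes Ctsd passed in the knockout comparison, Atp6v1a and Ctsa did not pass but did so under median-of-ratios scaling, Gla had an adjusted p of 0.0694, and Atp6v0d1 had an adjusted p of 0.606. Mcoln1, the lysosomal calcium channel and the sixth holder, differed by 0.39 (SE 0.278, adjusted p = 0.754). A match is a description of these letters and not a site of binding. Many members were known targets of TFEB beforehand, so their higher share of the element does not bear on the knockout comparison.

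The counting could touch some members. Exons of 13 members overlap those of another gene, among them Ctsl with the antisense gene Gm47123, Ctsb with Fdft1 and Ctsa with Neurl2 and Pltp, and 2 members, Atp6v0c and Cd63, have pseudogenes named after them. Ctsd overlaps Gm49369, and Ctsl the processed pseudogene Gm49230, on the same strand, where strand would not separate the reads. The labels do not say whether the authors' counting used strand, so reads of pairs on opposite strands cannot be told apart either.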

How the data were processed

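Total RNA of aortic valves was amplified with the Nugen Ovation RNA-Seq System v2 and made into libraries with the KAPA hyper prep kit, per the labels' protocols. Reads were placed on mm10, and the tools listed are edgeR, SAMtools 0.1.9, Bowtie 1.0.1 and FastQC 0.11.2, per the submitters' processing notes. The deposited values are treated as a score: normalised counts that the authors rounded to whole numbers, with the normalising step not given in the sources used here. They sum to nearly the same total in each library, so depth is unknown and no counting interval is given. Of 16 planned libraries 15 were used, and 1 column with no name was not used.

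Values were multiplied by 0.0979537. The 15004 genes that reached 1 unit in 4 or more libraries entered a limma fit (version 3.58.1, R 4.3.3, eBayes with trend and robust) on log2(value + 1), with group and sex as terms over all 15 libraries. The pseudocount of 1 understates the differences of low genes. There were 8 comparisons, including the 2 pooled ones and the interaction, each adjusted over its own genes. The procedure was tested on simulated data. Alternatives changed the scaling, the pseudocount, the filter, the sex term, library weights, the samples fitted, a replicate block and each library in turn.

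The members and lists were chosen with earlier results of these data known. The text names every member that passed in a comparison, or else up to 5 with the smallest p, those with the largest differences in each role, and a set list of genes (Ctsb, Ctsd, Ctsk, Ctss, Lamp1, Lipa, Npc1, Tfeb, Atp6v0c, Atp6v0d1 and others outside the members). Promoter windows are from RefSeq and gene positions from GENCODE M21. A comparison of protein sequences was not run. The values of 1 gene of the wider lysosome list are not reported here.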

Additional observations from a re-analysis of the deposited data

Results flagged for a closer look

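In groups of 4 libraries, a library was set apart where its gap to the nearest other, divided by the group's range, exceeded Dixon's critical value at the 95% level. Of 105 groups (35 genes) 4 met this, and chance alone gives about 1 in 20. HT replicate 1 stood above the other HT libraries for 3 genes. Ctsd was 509 units there, with the next HT library at 210 units. Lipa was 111 units there, with the next at 41.7 units. Acp5 was 4.41 units there, with the next at 0.882 units. Scarb2 was 114 units in HC replicate 3, with the next HC library at 67.0 units.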

How the results depend on the processing

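Each count of members is given with the share of all genes that passed, in either direction, in the same fit. A range of counts is given with the share at its highest count. The knockout count of 8 members (1.47%) became 14 with totals without the 4 most abundant rows (1.81%) and 14 without the sex term (2.29%). It became 15 with array weights (3.19%) and 3 (0.303%) without the 3 libraries that correlate least, an alternative chosen after seeing the data. Leaving out 1 library gave 4 to 18 (2.81%). The count stayed within 1.5 times under median-of-ratios scaling (12, 1.45%) and quantile normalisation (12, 1.61%). So it did with pseudocounts of 0.25 (8, 1.19%) and 4 (10, 1.61%), with no filter (7, 0.555%) and with a filter of 5 units (8, 1.49%). For HC against CON (0 members, 0.167%), 3 passed under median-of-ratios scaling (0.206%), 1 with totals without those rows (0.18%) and 4 after quantile normalisation (0.24%). In that comparison 3 passed without the sex term (0.273%), 8 with array weights (2.11%) and 2 with the compared groups alone (0.32%). Without the 3 libraries 2 passed (0.236%), and leaving out 1 library gave 0 to 6 (0.341%). For HC/HT against CON (0, 0.467%), 3 passed under each of those 3 scalings (0.686% to 0.725%) and 1 with the compared groups alone (1.01%). For HC/HT against HT (3, 0.373%), the count was 6 with totals without those rows (0.399%), 1 with a pseudocount of 0.25 (0.24%) and 0 with no filter (0.0383%). It was 5 without the sex term (0.413%), 1 with array weights (0.193%) and 6 with the compared groups alone (1.47%). Without the 3 libraries it was 0 (0.0404%), and leaving out 1 library gave 0 to 14 (1.74%). Array weights gave 3 members in HT against CON (2.75%) and 15 in hypertensive against normotensive valves (13.9%), where leaving out 1 library gave 0 to 2 (3.48% where it gave 2). Without the 3 libraries the member median was -0.14 in HT against CON (-0.65) and 0.30 in HC/HT against HT (0.85). The cause of these shifts was not tested, beyond the smaller number of libraries where some were left out.

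Replicate numbers showed no clear pairing of the libraries. With group means removed, same-numbered libraries correlated at a median of 0.07 (-0.12 to 0.27), against -0.07 for different-numbered ones. Of 15 libraries, 4 correlated best with their own number. With a replicate block 14 members passed in the knockout comparison (7 of the 8, without Ctss; 2.26% of all genes), 3 in HC against CON (0.28%), 6 in HC/HT against HT (0.92%) and 6 in hypertensive against normotensive valves (5.12%). The Tfeb difference of 0.03 changed sign to -0.070 under median-of-ratios scaling, -0.011 with totals without the 4 rows, -0.070 after quantile normalisation, -0.021 without the sex term and -0.21 without the 3 libraries, and ran from -0.12 to 0.20 when 1 library was left out. No member passed in HC/HT against HC or in the interaction under any setting run. The depth is unknown, and genes near 1 unit carry little precision.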
